A study of Homo sapiens with 3 samples.

Results

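The comparison described here is that of HT29 cells cultured on hyaluronan-grafted chitosan (CSHA) membranes with HT29 cells cultured on plain chitosan (CS) membranes, taken by their labels as 2 of the 3 arrays of the series. The third array, of cells on tissue culture polystyrene, was left out. HT29 is an established human colon adenocarcinoma cell line. For CS, chitosan was coated in the wells of a culture plate and dried to a film, and for CSHA, hyaluronan (HA) was coupled onto such a film with EDC and NHS, so that both membranes carried chitosan and only CSHA carried the graft. Total RNA of each culture was labelled with Cy3 and hybridized to 1 single-colour array, and each condition was therefore 1 culture and 1 array. No difference given below has a replicate check, and no test was run. In such bulk RNA, fewer cells of a type and less RNA per cell cannot be told apart.

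Hyaluronan is a long, unbranched polysaccharide of the extracellular matrix that cells bind mainly through CD44 and HMMR. It is made by synthases at the plasma membrane and is cut by hyaluronidases. The colonic epithelium in which HT29 cells have their origin holds dividing crypt cells, mucus-secreting goblet cells and absorptive colonocytes, and the line keeps markers of several of these.

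A value below is the normalized level, the log2 background-corrected signal of a probe minus the 75th percentile of its array, and a difference is the level on CSHA minus the level on CS. The 75th percentile was 423 on CS and 337 on CSHA, so that equal signals gave a higher level on CSHA. Of 21612 genes with a probe, 13840 were well above background on both arrays, and the brightest probe stood for each of them. All 12 colon epithelial markers were well above background on both arrays, with KRT18 the brightest on each. Of 16 stromal and immune markers 6 were well above background on both arrays, CD3E on CSHA only and 9 on neither, among them the collagen genes COL1A1 and COL3A1 and the mesenchymal filament gene VIM. The summed signal of the 16 was 2101 on CS and 2278 on CSHA, most of it from CD14.

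The promoters of genes from the groups that stood lowest on CSHA are shown first, since their members are referred to throughout. The sequences are those of RefSeq on GRCh38.p14, written 5′ to 3′ on the gene's strand. The first 4 are the 150 bases before the start of H2B histone genes with low to near equal levels on CSHA, and the capitals mark the octamer ATTTGCAT, searched on both strands, and the TATA box TATAAA, searched on the gene's strand only. No printed motifs overlapped.
H2BC6, chr6:26183611-26183760, + strand: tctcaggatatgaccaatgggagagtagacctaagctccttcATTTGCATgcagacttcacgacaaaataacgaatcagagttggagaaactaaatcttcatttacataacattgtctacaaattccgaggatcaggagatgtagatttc
H2BC7, chr6:26199366-26199515, + strand: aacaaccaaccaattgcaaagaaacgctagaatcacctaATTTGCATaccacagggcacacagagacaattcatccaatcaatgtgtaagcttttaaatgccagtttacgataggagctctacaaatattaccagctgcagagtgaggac
H2BC3, chr6:26043714-26043863, - strand: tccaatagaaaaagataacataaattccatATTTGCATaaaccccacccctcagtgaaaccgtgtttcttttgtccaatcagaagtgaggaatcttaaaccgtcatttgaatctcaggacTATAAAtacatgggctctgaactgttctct
H2BC21, chr1:149886683-149886832, - strand: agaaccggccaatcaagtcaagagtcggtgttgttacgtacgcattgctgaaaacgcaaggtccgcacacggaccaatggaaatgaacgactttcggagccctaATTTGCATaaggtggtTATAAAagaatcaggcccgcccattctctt

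The next 3 belong to genes of the amino acid response, which the transcription factor ATF4 drives through elements of the TGATGNAA kind. The capitals mark this motif, which was searched on both strands and lies on the opposite strand in AARS1 and CHAC1. For these genes the bases 250 to 101 before the start are shown, and for ASNS the 150 bases before it.
AARS1, chr16:70289607-70289756, - strand: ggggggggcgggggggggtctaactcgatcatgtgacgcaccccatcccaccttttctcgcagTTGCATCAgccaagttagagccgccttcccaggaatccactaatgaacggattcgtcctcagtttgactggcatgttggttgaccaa
CHAC1, chr15:40953221-40953370, + strand: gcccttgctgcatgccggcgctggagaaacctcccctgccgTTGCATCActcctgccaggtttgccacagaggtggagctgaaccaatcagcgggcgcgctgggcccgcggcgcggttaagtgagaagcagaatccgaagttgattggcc
ASNS, chr7:97872409-97872558, - strand: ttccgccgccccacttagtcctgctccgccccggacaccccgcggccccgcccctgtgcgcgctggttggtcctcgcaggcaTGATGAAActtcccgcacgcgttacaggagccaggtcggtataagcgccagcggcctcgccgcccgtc

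Most genes differed little between CS and CSHA membranes. Over the 13840 genes the median difference was 0.07 on the log2 scale, and the interquartile range was -0.15 to 0.26. At least 2-fold higher on CSHA were 133 genes, or 0.961% of those measured, and 206 genes were at least 2-fold lower, or 1.49%. Any difference above 0 was found for 59.1% and any below 0 for 40.9%. These shares are the background for the gene groups described below. Scaling mattered for this split. The higher genes made up 39.2% of all 2-fold differences, but 28.3% after loess between the arrays (104 higher, 264 lower) and 94.0% after scaling to spike-in RNA (654 higher, 42 lower). The 7 usable spike-in probes were on average 0.70 lower on CSHA on the log2 scale, with an SD over probes of 0.07, whereas the 75th percentiles differed by -0.33. All differences are therefore relative to the rest of the RNA, and group medians are to be read against 0.07.

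**Figure D1:**
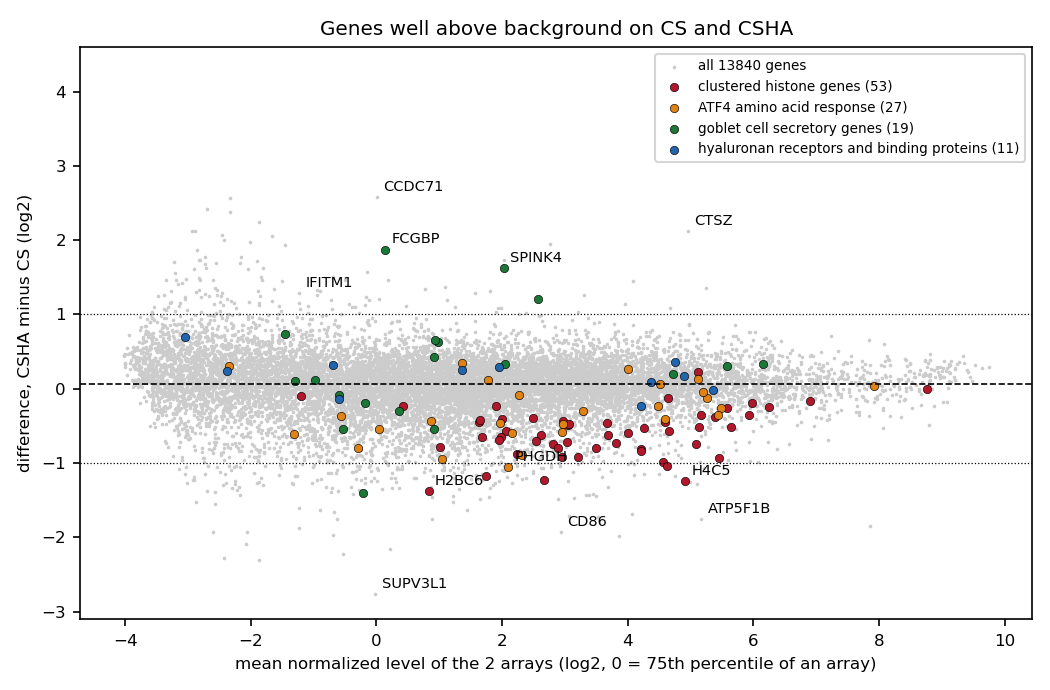
Each point is 1 of 13840 genes, with the mean normalized level of both arrays on the x axis and the difference CSHA minus CS on the y axis, both log2. The dashed line is the median of all genes, 0.07, and the dotted lines mark 2-fold. Clustered histone genes (red) lay below the dashed line with 1 exception, while the goblet cell genes (green) spread widely on both sides.

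The precision of these values could be read only within the arrays. Probes printed 10 times had an SD among spots that gives a difference an SD of 0.07 on the log2 scale, from 0.12 for the dimmest group of these probes to 0.06 for the brightest. Beyond 2 such SDs lay 59.9% of all genes. Differences between cultures are not part of it. Different probes of a gene gave a stricter comparison. Of 3614 genes with at least 2 measured probes, 53.2% had all probes on the same side of 0, 31.7% all higher and 21.4% all lower on CSHA. Across these genes, which are not independent replicates, the differences of the 2 brightest probes correlated with an r of 0.17, and with an r of 0.25 over the 1599 genes above the 75th percentile. Most of the 2-fold genes rested on 1 probe, namely 115 of the 133 higher and 178 of the 206 lower ones. Among the remaining 46, all probes had the same sign for 15 of 18 higher and 13 of 28 lower genes.

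**Figure D2:**
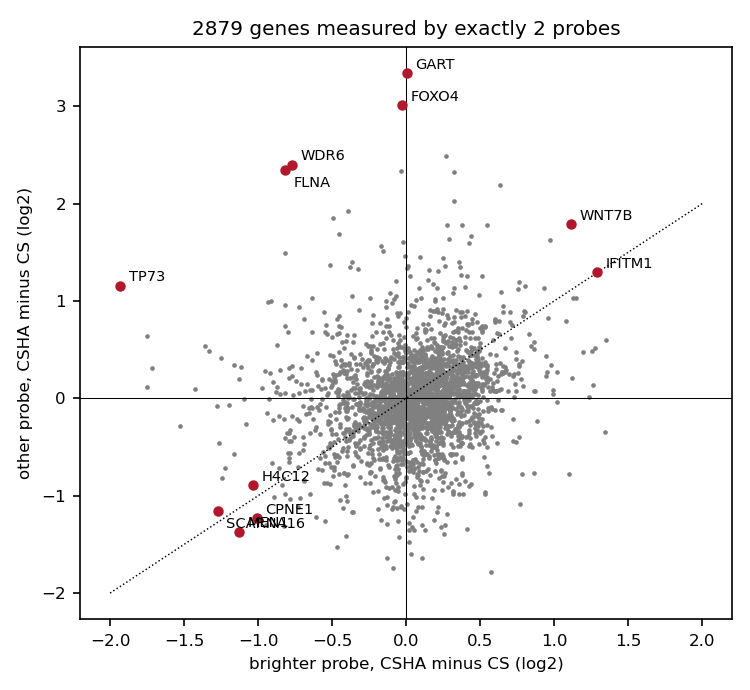
The 2879 genes measured by exactly 2 probes are plotted with the difference CSHA minus CS of the brighter probe on the x axis and of the other probe on the y axis, both log2, and the dotted line marks equal values. IFITM1 and WNT7B were high by both probes and MEN1, CPNE1, SCARNA16 and H4C12 low by both, whereas GART, FOXO4, WDR6, FLNA and TP73 lay far from the line, and 58.3% of the genes had the same sign by both probes.

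All measured probes were at least 2-fold higher on CSHA for 4 genes (0.111% of the genes with several measured probes) and at least 2-fold lower for 3 (0.083%). IFITM1, an interferon-induced membrane protein that restricts virus entry, had a signal of 115 on CS and 225 on CSHA by its brighter probe and of 49.4 and 96.9 by the other, with log2 differences of 1.29 and 1.30. WNT7B, a secreted Wnt ligand, had signals of 98.5 and 170 and of 31.5 and 86.9 on CS and CSHA, with differences of 1.11 and 1.79. Another WNT7B probe went the other way, with a signal of 36.3 on CS and 22.7 on CSHA, where it was not well above background. APBA1, an adaptor that binds the amyloid precursor protein, was higher by 1.15 and 1.03, and TNKS1BP1, a tankyrase-binding protein, by 1.12 and 1.03. Their signals did not exceed 441 on either array.

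The 3 lower genes were brighter. SCARNA16, a small RNA of Cajal bodies, had a signal of 2933 on CS and 970 on CSHA and differences of -1.27 and -1.16 by its probes. MEN1, which encodes the nuclear scaffold protein menin, had signals of 1058 and 387 and differences of -1.13 and -1.37. CPNE1, a calcium-dependent phospholipid-binding protein, had signals of 10239 and 4067 and differences of -1.01 and -1.23. Both probes were also lower for MAD1L1 of the spindle checkpoint (-0.94 and -1.30, the brighter probe first), the arginine methyltransferase PRMT5 (-0.73 and -1.12), the co-chaperone STIP1 (-0.78 and -1.03) and the replicative helicase subunit MCM5 (-0.86 and -0.72). On the higher side, both probes of the kinase CSNK1G2 (1.08 and 0.80), of the transcription factor NFIC (0.76 and 1.19), of the long noncoding RNA UCA1 (0.80 and 1.15) and of the ADP-ribosyltransferase PARP10 (0.79 and 0.85) were higher on the log2 scale.

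With the brightest probe standing for each gene, the largest differences came from genes with 1 measured probe. CTSZ, which encodes the lysosomal protease cathepsin Z, was the brightest of the 10 highest, with a signal of 6318 on CS and 21982 on CSHA and a log2 difference of 2.12. CCDC71, SERPINF2, STAT4 and CATSPER3 differed by 2.58, 2.42, 2.25 and 2.57, from signals of 175, 28.1, 53.2 and 34.4 on CS. On the lower side, SUPV3L1, an RNA helicase of mitochondria, had a signal of 1091 on CS and 128 on CSHA and a difference of -2.77. CD86, known as a co-stimulatory ligand of antigen-presenting cells, had a signal of 6314 on CS and 1323 on CSHA and a difference of -1.93. MEF2C, a transcription factor of muscle and other tissues, differed by -2.30 with signals of 256 and 41.6. With no second probe to set beside them, a spot defect was not tested for these genes. The largest disagreements between probes show what such a value can hide. GART, an enzyme of purine synthesis, differed by 0.00 by its brighter probe and by 3.34 by the other, whose signal was 1143 on CS and 9233 on CSHA. FLNA, which encodes the actin crosslinker filamin A, was at -0.82 by a bright probe and at 2.34 by a dim one.

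Some genes were well above background on 1 array only and gave lower bounds. On CSHA only there were 376, of which 197, or 52.4%, were at least 2-fold higher as a bound, and on CS only there were 541, of which 103, or 19%, were. LMOD2, known from muscle, had a signal of 209 on CSHA against 5.59 on CS and was at least 12.2-fold higher on CSHA. HOXD3 had a signal of 258 on CS against 17.1 on CSHA and was at least 9.09-fold higher on CS. These genes were dim, and the counts of 197 and 103 were not taken above equal signals. The dimmest gene to reach a 2-fold bound had a signal of 34.4 on CSHA (ZNF735) and of 56.9 on CS (GPX6). Equal signals gave a higher level on CSHA, so that a bound was reached there from a lower signal. The larger count on CSHA is therefore not read as a difference between the membranes. Among the genes measured on both arrays, the count of higher genes went with brightness. In the dimmest of 5 equal groups of the measured genes the median difference was 0.18 on the log2 scale and 85 genes were at least 2-fold higher, while the other groups had medians of 0.03 to 0.07 and 5 to 25 such genes each. The part of the low signals in the higher count of the dimmest group was not tested.

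The groups of genes varied in both directions around the median of all genes. Of 39 gene lists, 17 had a median below that of all genes and 22 above it. Clustered histone genes and ATF4 response genes were the lowest, and goblet cell and colonocyte genes the highest, with the brightest probe standing for each gene. Lists are described by their counts and medians, their members share 2 arrays, and nothing was tested.

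**Figure D3:**
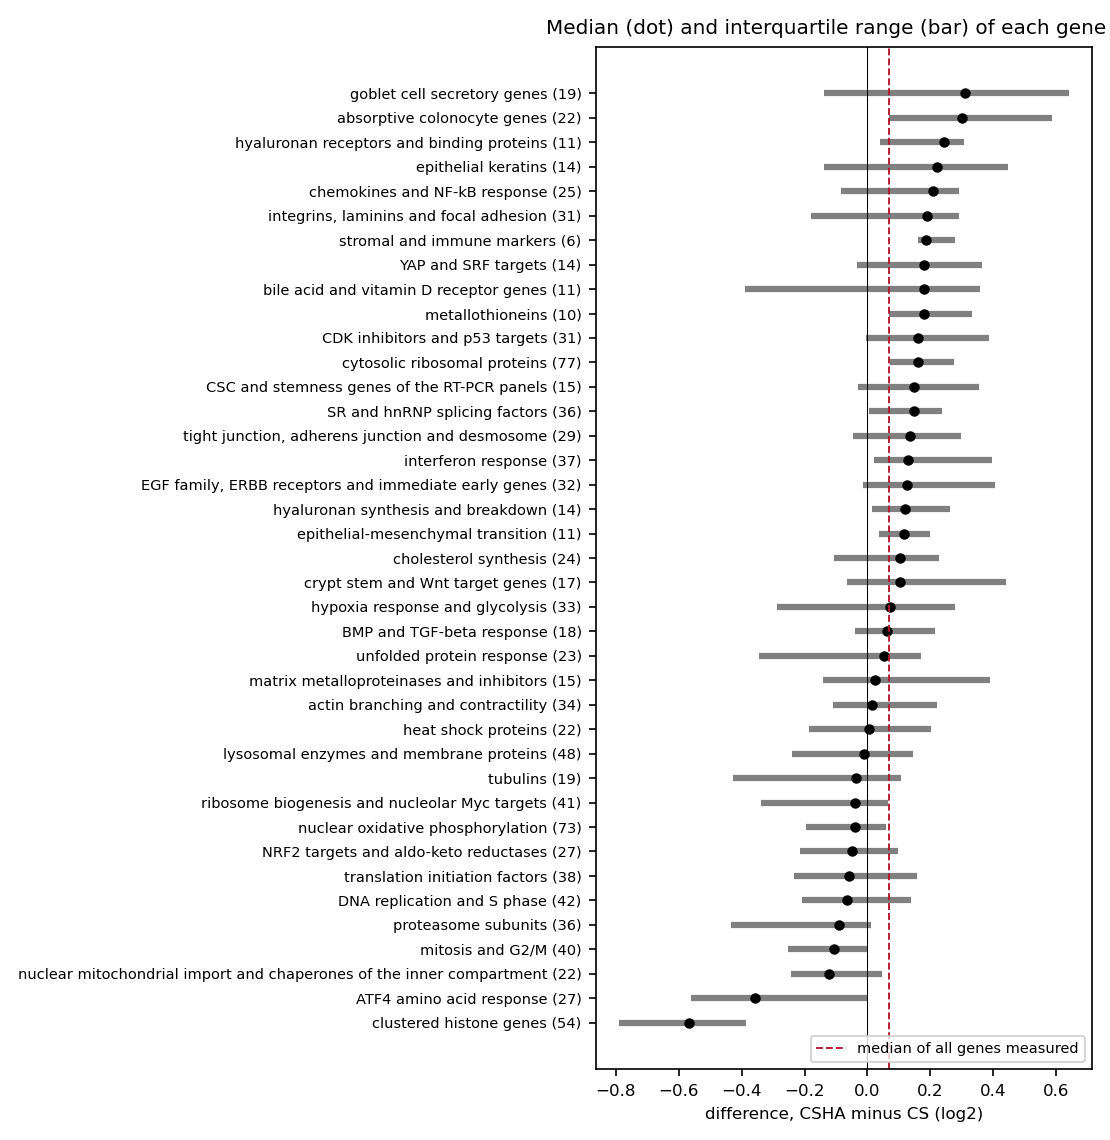
For each of 39 gene lists, with the number of measured members in parentheses, the dot is the median difference CSHA minus CS and the bar the interquartile range of the members, both log2, and the dashed line is the median of all genes. The bar of the clustered histone genes lay wholly below 0, from -0.79 to -0.38, while the medians of the lists other than histone and ATF4 response genes lay between -0.12 and 0.31.

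Clustered histone genes, which supply the core and linker histones for packing newly made DNA and are transcribed mainly in S phase, were lower on CSHA in nearly every case. Of 57 genes 54 were measured, 52 of these were lower and 2 higher, and the median difference was -0.57 on the log2 scale, against 40.9% lower and a median of 0.07 over all genes. At least 2-fold lower were 5 of the 54, against 1.49% over all genes. Every class shared in the shift, with medians of -0.53 for H1, -0.54 for H2A, -0.47 for H2B, -0.72 for H3 and -0.72 for H4. All 12 H2A genes, all 16 H2B genes and all 11 H4 genes measured were lower.

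H2BC6 had a signal of 1214 on CS and 372 on CSHA, with a difference of -1.38. H4C5 had signals of 19606 and 6599 (-1.25), and H1-5 of 4120 and 1410 (-1.22). H2BC7 followed with 2132 and 752 (-1.18). H4C12 was lower by both probes, at -1.03 and -0.89, with a signal of 14977 on CS and 5838 on CSHA by the brighter one. Of 9 histone genes with several measured probes, 8 were lower by all of them, and H2BC12 was at -0.43 by its brighter probe and at 0.35 by the other. The genes that did not share the shift were few. H3C1 was at 0.23, with signals of 13610 and 12718. H4C3, the brightest of all, had signals of 184444 and 146927 and a difference of -0.00, and H2BC21, the dimmest H2B gene, was at -0.10. Histone genes have near-identical coding sequences, so that a probe may bind the transcripts of several, and these rows are not independent of each other.

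**Figure D4:**
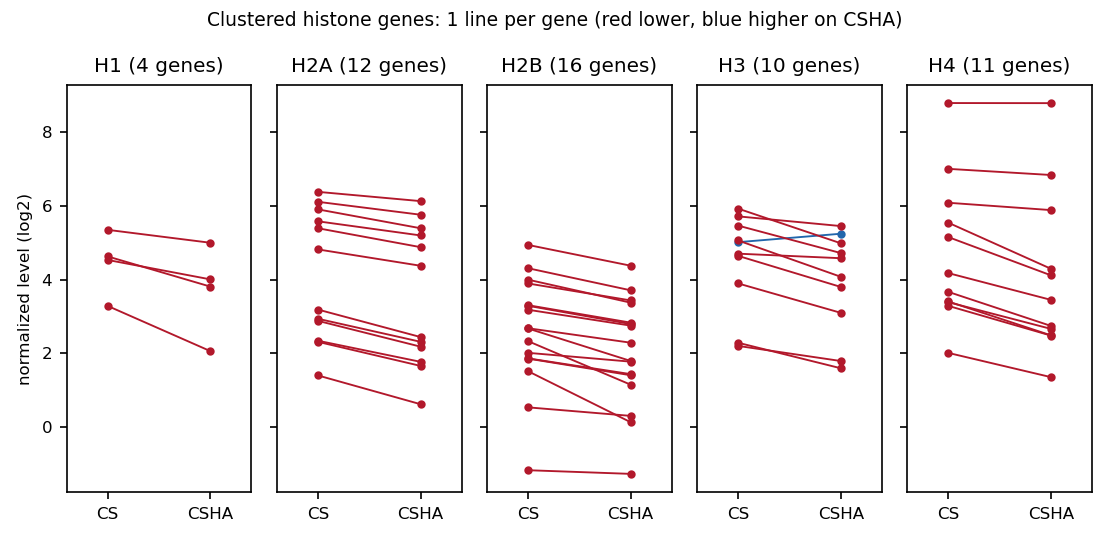
Each line joins the normalized log2 level of 1 of 53 clustered histone genes on CS and on CSHA, by histone class, in red where it was lower and in blue where it was higher on CSHA. The lines of H2A, H2B and H4 all ran down, H4C3 at the top of the H4 panel by less than 0.01, and H3C1 is the blue one.

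The octamer shown in capitals above lay within 250 bases before the start in 22 of 27 measured H2A and H2B genes with a promoter sequence, or 81.5%, and in 1 of 21 measured H3, H4 and H1 genes, or 4.76%, against 1.66% of all 27305 promoters of the same length. H2BC6, H2BC7 and H2BC3, at -1.38, -1.18 and -0.88, held it 108, 111 and 120 bases before the start, and H2BC21, at -0.10, held it 46 bases before the start, next to a TATA box. The histone genes with the octamer had a median difference of -0.51 (23 genes) and those without it of -0.70 (25 genes), but 22 of the 23 holders were H2A and H2B genes. Within the H2A and H2B genes the median was -0.51 with it (22 genes) and -0.39 without it (5 genes), and of the H3, H4 and H1 genes the holder H3C4 was at -0.94, beside a median of -0.73 for the other 20. The sequence TATAAA lay anywhere within these 250 bases in 56.3% of the 48 histone promoters and in 7.17% of all promoters. These shares were counted without regard to its distance from the start, so they are not shares of promoters with a TATA box. H2BC6 was among the holders, although its bases printed above hold no TATAAA.

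Most clustered histone transcripts end in a stem-loop in place of a poly(A) tail, and other RNAs without such a tail were set beside them. Of 207 measured snoRNAs, which guide the modification of ribosomal RNA, 138 were lower and 69 higher on CSHA, with a median of -0.17. Over all genes 40.9% were lower, and the median was 0.07. At least 2-fold lower were 9 of the snoRNAs and 2-fold higher 4, against 1.49% and 0.961% over all genes. RNA18SN5, the 18S ribosomal RNA, had a signal of 185065 on CS and 41173 on CSHA and a difference of -1.84. The brightest probe of the 28S ribosomal RNA, RNA28SN5, was at 0.44. Of 3 measured ribosomal RNAs 2 were lower and 1 higher, with a median of -0.99. The 3 measured vault RNAs had the same counts and a median of -0.32. Of 20 RNAs annotated only as noncoding, among them SCARNA16, 13 were lower and 7 higher, with a median of -0.13. RN7SK, a small nuclear RNA that holds back transcription elongation, was at -0.69, but the 14 snRNAs had a median of 0.20. Genes of DNA replication, described next, had a median nearer to that of all genes. The part of RNA without poly(A) tails in the histone result was not tested.

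Of 42 replication and S phase genes, all measured, 23 were lower (54.8%, against 40.9% over all genes) and 19 higher, with a median of -0.07. MCM2, a subunit of the replicative helicase, had a signal of 11997 on CS and 4314 on CSHA and a difference of -1.15. MCM5 of the same helicase was lower by both probes (-0.86 and -0.72), and ORC1 of the origin recognition complex, the clamp loader subunit RFC2 and the flap nuclease FEN1 were at -0.91, -0.84 and -0.80. SLBP, the protein that binds the histone stem-loop, was at 0.17. POLD1, the catalytic subunit of DNA polymerase delta, was highest at 0.32. All 40 genes of mitosis and G2/M were measured, 31 of them lower (77.5%, against 40.9% over all genes), with a median of -0.11. CDC20, an activator of the anaphase-promoting complex, had signals of 3820 and 1776 (-0.78), and the mitotic kinase AURKA had 6459 and 3293 (-0.65). PLK1, another mitotic kinase, was at -0.88 by its brighter probe but at 0.06 by the other. The proliferation marker MKI67 was at 0.34 by its brightest probe and as low as -0.38 by another, so that its direction turned with the probe.

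Genes of the ATF4 amino acid response, which cells raise when amino acids run short, were mostly lower on CSHA than on CS. Of 30 genes 27 were measured, with 20 lower (74.1%) and 7 higher, against 40.9% lower over all genes. The median was -0.36. PHGDH, the first enzyme of serine synthesis, had a signal of 2604 on CS and 1004 on CSHA, and its difference of -1.05 was the only 2-fold one of the list. AARS1, the alanyl-tRNA synthetase, had signals of 1218 and 503 (-0.95). SLC3A2, the heavy chain of several amino acid transporters, had signals of 2879 and 1236 (-0.89). CARS1 and WARS1, which charge tRNAs with cysteine and tryptophan, were at -0.80 and -0.60, and the arginine transporter SLC7A1 at -0.58. PSAT1, which follows PHGDH in the serine pathway, was at -0.41 and -1.01 by its probes. DDIT3, which encodes the stress factor CHOP, was at -0.61 and the kinase-like protein TRIB3 at -0.26.

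ATF4 itself, the brightest gene of the list with a signal of 101241 on CS and 82789 on CSHA, was at 0.03. ASNS, which makes asparagine, was at -0.13. ATF3 was higher by all 4 probes, from 0.10 to 0.64, and NUPR1 was the highest of the list at 0.35. The TGATGNAA motif lay in 4 of 23 promoters of measured members, or 17.4%, against 3.19% of all promoters. Its holders were AARS1 (-0.95), CHAC1 (-0.43), which degrades glutathione, ASNS (-0.13) and ATF3 (0.12), so the motif was found in the lowest as well as in the higher members. Genes of the unfolded protein response in the endoplasmic reticulum lay near all genes, with a median of 0.05. Of these, 13 of 23 (56.5%) were higher, against 59.1% over all genes, with a range from -0.68 for the chaperone HYOU1 to 1.32 for ATF6B.

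No measured hyaluronan receptor or binding protein differed by 2-fold between the membranes. Of 25 genes 11 were measured, 8 higher (72.7%) and 3 lower, against 59.1% higher over all genes. Their median was 0.24, against 0.07 over all genes. CD44, the main hyaluronan receptor, had a signal of 10015 on CS and 10284 on CSHA and a difference of 0.36, and its dimmer probe was at 0.20 with signals of 73.1 and 67.2. HMMR, the receptor for hyaluronan-mediated motility that also acts at the mitotic spindle, had signals of 8511 and 5809 and the lowest difference, -0.23. TLR4, which can sense hyaluronan fragments, was at 0.26 by its brighter probe and at -0.10 by the other. ICAM1 and HABP4 were at 0.24 and 0.29, and HAPLN3, a link protein of the hyaluronan matrix, at 0.32. ITIH4 was highest at 0.70, from signals of only 40.0 and 51.9. Of the ERM proteins that tie CD44 to actin, MSN was at 0.18, EZR at 0.10 and RDX at -0.14, and their relative NF2 was at -0.02.

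LYVE1, STAB2, LAYN and the matrix proteoglycans VCAN and ACAN were well above background on neither array. ITIH2, whose product is bound to hyaluronan as a heavy chain, was measured on CS only, with a signal of 57.2, and was there at least 2.02-fold higher. Genes of hyaluronan synthesis and breakdown had a median of 0.12, with 11 of 14 measured genes (78.6%) higher, against 59.1% over all genes. HAS3 was the only synthase measured and was dim, with a signal of 105 on CS and 92.2 on CSHA and differences of 0.14 and 0.36 by its probes. HAS1 and HAS2 were not well above background. UGDH, which makes the UDP-glucuronic acid precursor, was at 0.21. Of the degrading enzymes, HYAL2 was at 0.33 with signals of 10772 and 10790, HYAL1 was at 0.28, and CEMIP was at 0.45 by the brighter and 0.16 by the other probe. HYAL3 was at 0.36 and -0.27 by its probes. HEXA, a subunit of the lysosomal hexosaminidase, was lowest, just short of 2-fold lower, with a signal of 3564 on CS and 1423 on CSHA. CEMIP2 was at -0.01 by its brighter probe and at -0.98 by the other.

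The 15 measured stemness and cancer stem cell genes that the study also followed by RT-PCR had a median of 0.15, with 10 higher and 5 lower and none 2-fold apart. The share of higher genes was 66.7%, against 59.1% over all genes. MYC had a signal of 30704 on CS and 33564 on CSHA (0.45), EPCAM of 54195 and 54916 (0.34), and the chemokine receptor CXCR4 of 12050 and 11458 (0.25). NANOG was at 0.49 and the CDK inhibitor CDKN1A at 0.54, both from signals under 36 on either array. POU5F1 and BMI1 were higher by both probes, at 0.11 and 0.18 and at 0.15 and 0.17. ALDH1A1 was lower by both, at -0.10 and -0.45, CTNNB1 was at -0.05 and -0.19, and ABCG2, PROM1, which encodes CD133, and MMP14 were at -0.06, -0.01 and -0.24. WNT2B was not well above background. Of the crypt stem and Wnt target genes 12 of 17 measured (70.6%) were higher, against 59.1% over all genes. Their median of 0.10 lay near that of all genes. SP5 (0.60), SOX4 (0.57), ASCL2 (0.48) and RNF43 (0.44) were the highest, with RNF43 at signals of 22157 and 23981. LGR5 was at -0.21 with signals of 53 and 37. CDCA7, the lowest of the list (-0.24 and -0.12), and AXIN2 (-0.07 and -0.49) were lower by both probes, the brighter probe first. Of 5 members with several measured probes, 1 was higher by all of them and 2 were lower by all.

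**Figure D5:**
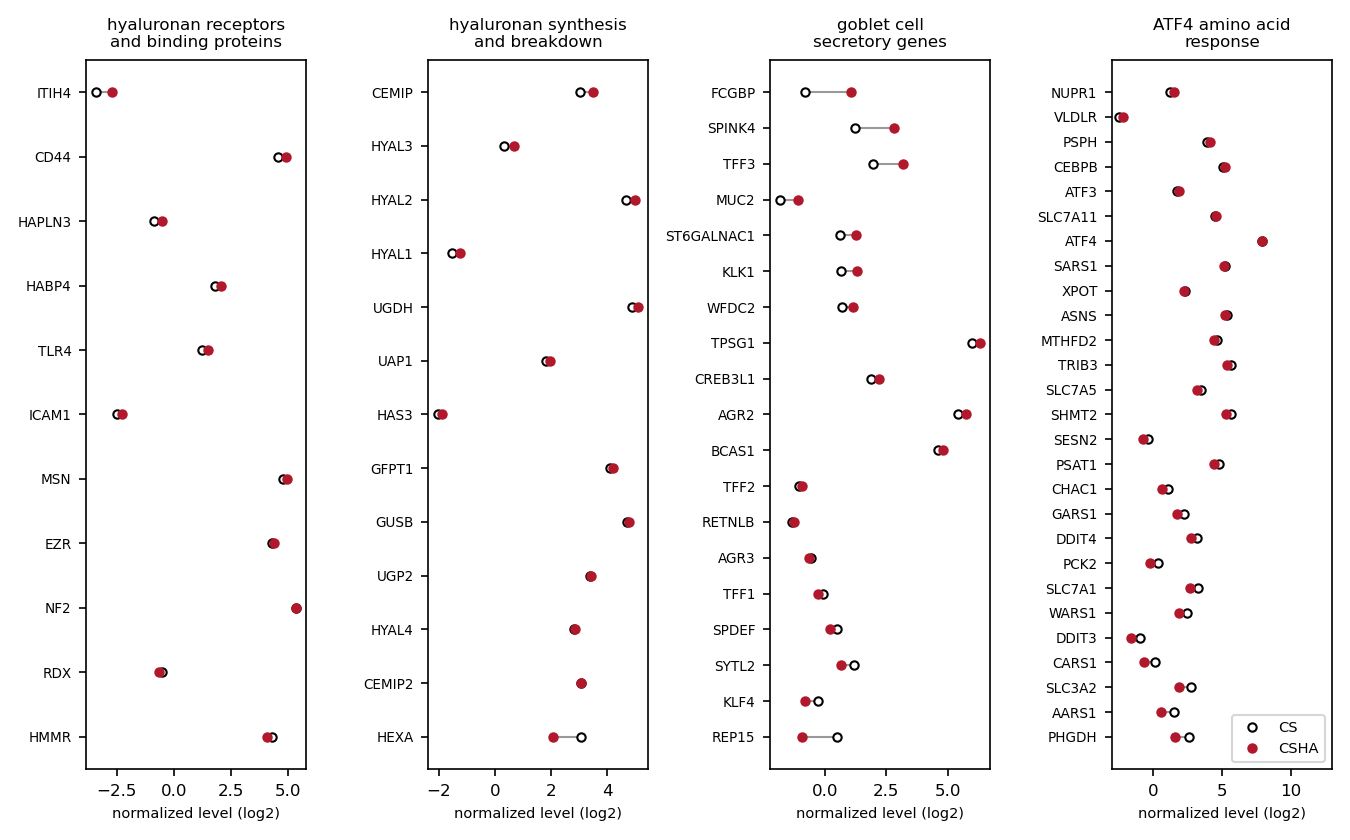
For the measured members of 4 gene lists the normalized log2 level on CS (open circle) and on CSHA (red circle) is shown, ordered within a list by the difference. Hyaluronan genes sat close together on both arrays except HEXA and ITIH4, FCGBP, SPINK4 and TFF3 stood well to the right on CSHA, and the ATF4 response genes from PHGDH up to MTHFD2 stood to the left.

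The goblet cell list had a median of 0.31 and a wide spread. With the mean over the probes of a gene its median was 0.23, below the 0.30 of the absorptive colonocyte list. Of 24 genes 19 were measured, with 13 higher (68.4%) and 6 lower, against 59.1% higher over all genes. At least 2-fold higher were 3 of them, against 0.961% over all genes. FCGBP, a mucus protein that binds IgG Fc, had a signal of 243 on CS and 711 on CSHA (1.87). SPINK4, a small protease inhibitor of goblet cells, had signals of 981 and 2408 (1.62). TFF3, the intestinal trefoil factor, was higher by all 3 probes, at 1.21, 0.72 and 0.09 from the brightest to the dimmest. MUC2, the gel-forming mucin of the colon, was at 0.73 and 0.15 by its measured probes, whose signals did not exceed 160, and its other 2 probes were not well above background. ST6GALNAC1, which adds sialic acid to mucin sugars, was at 0.65, and AGR2, a disulfide isomerase needed for mucin folding, at 0.31. The transcription factors of the lineage did not share this direction. SPDEF had signals of 599 and 388 (-0.30), KLF4 of 351 and 192 (-0.54), and ATOH1 was not well above background. REP15, a Rab15-binding protein of secretion, was lowest at -1.40, with signals of 593 and 179.

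Absorptive colonocyte genes had a median of 0.30, with 18 of 22 measured genes (81.8%) higher, against 59.1% over all genes. The adhesion molecules CEACAM6 and CEACAM5 were at 0.79 and 0.59, and CEACAM7 was at 0.61 and 0.30 by its probes. KRT20, the keratin of differentiated intestinal cells, had a signal of 10133 on CS and 12765 on CSHA (0.66), and PHGR1 of 11487 and 14618 (0.67). GUCA2A, which encodes guanylin, was lower at -1.04 from signals of 129 and 50.1, as was the lectin LGALS4 at -0.74 from 51486 and 24655. CDX2 and CDX1, transcription factors of intestinal identity, were at -0.04 and 0.18. E-cadherin, CDH1, had a signal of 8789 on CS and 10308 on CSHA (0.56) and was the highest of 29 junction genes, whose median was 0.14.

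Genes by which cells hold the matrix had a median of 0.19, against 0.07 over all genes. Of 31 measured integrin, laminin and focal adhesion genes 20 (64.5%) were higher, near the 59.1% over all genes. ITGB4 and ITGB1, integrin beta chains, were at 0.46 and 0.40, the laminin chain LAMB1 at 0.61, TNS4 of focal adhesions at 0.61 and paxillin, PXN, at 0.29 and 0.54 by its probes. Proteins that link integrins to actin were spread, with the crosslinkers ACTN1 and ACTN4, members of the alpha-actinin family, at 0.17 and 0.15 and others lower. TLN1, which encodes talin and activates integrins, had a signal of 446 on CS and 138 on CSHA (-1.37), and ZYX, a protein of focal adhesions and stress fibres, of 1238 and 585 (-0.76). Of 34 measured genes of actin branching and contractility 19 (55.9%) were higher, against 59.1% over all genes, with a median of 0.02. The lowest was the Arp2/3 subunit ARPC1B, with signals of 6283 and 2568 (-0.97). ITGA5, the alpha chain of the fibronectin receptor, was measured on CS only, with a signal of 65.5, and was at least 2.31-fold higher there. Tubulins were spread, with 11 of 19 (57.9%) lower, against 40.9% over all genes, and a median of -0.04. TUBA1A and TUBB4B were at -1.28 and -1.14, with signals of 22732 and 14273 on CS, while TUBA1B was at -0.04 and TUBA4A ranged from -0.81 to 0.21 over its 3 probes.

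Other lower groups held housekeeping machines. Their shares of lower genes were 72.2% for the proteasome, 68.2% for mitochondrial import and 57.5% for oxidative phosphorylation, against 40.9% over all genes. Proteasome subunits were lower for 26 of 36, with a median of -0.09, led by PSMA7 of the core (40324 on CS and 16203 on CSHA, -0.99) and by PSMC2 of the regulatory cap, which was lower by both probes (-0.69 and -0.53). Mitochondrial import genes were lower for 15 of 22, with a median of -0.12, led by the channel VDAC3 (-0.77) and by TIMM44 (-0.66), and TIMM23 of the inner membrane pore was lower by both probes (-0.52 and -0.66). Nuclear genes of oxidative phosphorylation were lower for 42 of 73, with a median of -0.04, and only ATP5F1B, the beta subunit of the ATP synthase, was 2-fold lower, at -1.75 with signals of 27945 and 6629. Of the heat shock proteins, 11 were higher and 11 lower, and HSP90AB1, a constitutive HSP90, was lower by both probes (-1.16 and -0.58) while HSP90AA1 was at -0.06.

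Higher groups with small shifts were the cytosolic ribosomal proteins and the interferon response genes, beside 59.1% higher over all genes. The ribosomal proteins had 63 of 77 (81.8%) higher and a median of 0.16. The interferon response genes had 28 of 37 (75.7%) higher and a median of 0.13. The ribosomal protein direction relative to all genes turned under quantile normalization, where their median stood 0.03 below that of all genes. RPL3 was lower by both probes, at -0.52 and -0.51, against the trend of its group. Among the interferon genes, IFITM1 (1.29) and the GTPase MX2 (1.08) were the 2-fold ones, and OAS2, an antiviral oligoadenylate synthetase, was higher by both probes (0.65 and 0.95). IFI35 was lowest at -0.64, B2M of MHC class I was at -0.32 with signals of 34988 and 22390, and IFIT1 was at -0.01. Cholesterol synthesis, hypoxia and glycolysis, and the BMP and TGF-beta response had medians of 0.10, 0.07 and 0.06, near that of all genes.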

How the data were processed

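The authors deposited the spot intensity of each array as Feature Extraction 10.7.3.1 gave it, per the file headers (the methods name another version), and a table of log2 values. At all 62976 spots the deposited log2 difference of the arrays was, within 1e-05 and apart from 1 constant, that of the median spot signals without background subtraction. How that table was centred is not stated, and it was tried as an alternative. In it, 0 columns lacked a sample.

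The processed signal, floored at 1 (0 spots reached the floor), was log2 transformed, and the array's 75th percentile was subtracted, without control spots or spots flagged as outliers (264 on CS, 359 on CSHA). Well-above-background probes were 51.1% on CS and 49.9% on CSHA, and 0 spots were saturated. Of 50584 probes 29996 matched 1 symbol in RefSeq (GRCh38.p14), and the others were not used. Design coordinates were not used. For a bound, the dim side was set to its array's lowest signal among detected probes (21.5 on CS, 22.6 on CSHA), or to the probe's own signal where that was higher.

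Genes were named by rank among agreeing probes, single probes and bounds, as the extremes of each list, as hyaluronan or RT-PCR panel members, or for disagreeing probes. Other members of a list were named after their values were seen, as examples. A few members are not reported here by name or in figures, though lists count them. Members and lists were chosen with earlier results of these data known. In simulated arrays given only the spread among spots, 200 of 200 genes changed by 1.5 (log2) were recovered among 13840, with 0 others called. With so small a spread this outcome was set in advance, and it checks only the calculation. It says nothing of the spread between probes or between cultures. Python 3.11.15, pandas 2.3.3, R 4.3.3 and limma 3.58.1 were used.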

Additional observations from a re-analysis of the deposited data

How the results depend on the processing

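Each condition was 1 array, so no replicate could be left out. No paired analysis was possible because the groups share no replicate numbers beyond a single array each. The list and gene values below are log2 differences from the median of all genes in the main setting, after removing the shift that a scaling gave to all genes, which exceeded 0.1 only with spike-in RNA (0.38).

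Of 26 counts of genes 2-fold higher or lower on CSHA (main 133 and 206), 11 stayed within 1.5 times. The others were 36 and 131 with normexp, 654 and 42 with spike-in scaling, 1134 and 680 with no filter on dim probes, 48 and 114 with the deposited values, 15 and 13 over genes with agreeing probes, 777 and 897 at 1.5-fold, 31 and 23 at 3-fold, and 50 higher with a signal of at least 100. Normexp with its offset of 50 and the deposited values, which keep the background, compress dim differences by construction, and fewer genes pass the stricter filters.

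Of 434 list medians, 410 stayed within the spread of the spots. The constant scalings, to detected probes or to spike-in RNA, return a list's main median by construction, and their values are included in the 410. Nor could they change the counts that follow. Of 17 lists below 0 in the main setting 13 stayed below 0 in every alternative, and of 22 above 0, 18 stayed above. With agreeing probes only, the medians were -0.757 for clustered histones (8 genes), -0.433 for tubulins (3), -0.216 for hypoxia and -0.135 for crypt stem genes (both changed sign, from 0.00351 and 0.035), -0.0227 for ribosome biogenesis, 0.0886 for NRF2 targets (reversed, 3 genes), 0.24 for EGF family genes, 0.344 for interferon and 0.515 for goblet cell genes. With the mean over probes they were -0.203 for tubulins, -0.151 for heat shock proteins, -0.00184 for SR and hnRNP factors (reversed), 0.0192 for chemokines, 0.159 for goblet cell genes and 0.191 for metallothioneins. Quantile normalization gave 0.0585 for keratins, 0.0537 for chemokines and -0.0339 for ribosomal proteins (reversed). With no filter, crypt stem genes were at 0.295, YAP and SRF targets at 0.198, interferon at 0.157, stromal markers at 0.261 and bile acid genes at 0.253, the latter also with the stricter filter (0.253). The median of all genes itself was 0.16 with no filter, against 0.07 in the main setting. This shift was not removed from the values with no filter, so they are not moves of these lists alone. Relative to all genes in the main setting, the histone median ran from -0.757 to -0.615 and the ATF4 median from -0.45 to -0.392 over all alternatives. Apart from these, the cause of a move was not tested.

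The constant scalings and the filters return a gene's main value by construction. The mean over probes does so for genes with 1 measured probe. Of 1768 values of named genes, 1553, these included, stayed within that spread and 10 reversed. With the mean over probes these were MT1X (0.235), MKI67 (-0.0613), HYAL3 (-0.0215), CDKN2A (-0.0735), GART (1.6), WDR6 (0.745) and FLNA (0.693). With normexp they were MMP14 (0.00188) and PTPRC (0.0738), the latter also with the deposited values (0.062). The correction for promoter GC content, restricted after seeing the data to protein-coding genes, was void over all genes, of which 78.0% had a promoter sequence, and was used for the 19 lists with at least 80%, none of which it reversed.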
